A study of Mus musculus with 4 samples.

Results

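The cells described here were Paneth-type cells of the small intestinal crypt whose RNA was dominated by alpha-defensins and in which no transcript of the trypsinogen gene Try5 was captured, in mice carrying a deletion of the amino acid transporter gene Slc7a5 in the intestinal epithelium. They were chosen by 2 measured values: at least 40% of a cell's UMIs (unique molecular identifiers, the tags by which captured transcripts are counted) belonged to the 22 genes with a Defa symbol in GENCODE M21, and the cell had 0 UMIs of Try5. Both values are a description of the selection and not a finding. The rule took 1344 cells from slc7a5 IEC-KO replicate 1 and 1406 from replicate 2, which made 2750 of the 19648 cells of these libraries and of 26498 cells in all 4 libraries. With the older symbols of the deposited gene table, which name only 13 genes Defa, the same rule would take 286 and 242 cells. The comparison group was 3936 cells of the slc7a5 fl/fl libraries with at least 40% Defa UMIs.

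Paneth cells sit at the crypt base, among the stem cells, and release granules of antimicrobial proteins into the gut lumen. Alpha-defensins, also called cryptdins in the mouse, are made as precursors, and in mouse Paneth cells the metalloprotease matrilysin (Mmp7) cuts them to the active form, while in human Paneth cells trypsin does so. The granules also carry lysozyme, phospholipase, ribonucleases of the angiogenin family and several lectins. Slc7a5 pairs with Slc3a2 to carry large neutral amino acids such as leucine across the cell membrane, and a shortage of amino acids is known to raise the transcription factor Atf4 and its target genes.

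Live EpCAM-positive, CD45-negative crypt cells of 8-week-old mice were sequenced with the 10x Genomics 3′ kit in 4 libraries, 2 per genotype. The slc7a5 IEC-KO mice carried 2 floxed Slc7a5 alleles and Cre driven by the villin promoter, which is active throughout the intestinal epithelium, and the slc7a5 fl/fl controls carried the floxed alleles without Cre. The sources name 4 mice without dividing them among the libraries, so p-values here measure only the spread between these libraries, which may be technical. The fl/fl libraries held 3633 and 3217 cells with 113529509 and 119339206 UMIs, and the IEC-KO libraries held 10004 and 9644 cells with 87922473 and 127094508 UMIs.

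Depth set the libraries apart before any gene was compared. The cells without Try5 had a median of 13844 and 19129.5 UMIs in the IEC-KO replicates, and the defensin-rich fl/fl cells had 47036.5 and 53122.5. Every cell of both these groups was therefore thinned at random to 3913 UMIs, the lowest total among them, and none of them was lost. The 2 IEC-KO libraries shared 132 barcodes, 1 of them among compared cells, and the other pairs of libraries shared 14 to 52, with at most 6 among compared cells. Mitochondrial UMIs were few, with medians of 0.606% and 0.675% in the cells without Try5 and 0.792% and 0.758% in the fl/fl cells. Cells with the highest doublet scores, marked at 0.8% per 1000 cells of a library, were 4.76% and 7.82% of the cells without Try5 and 2.59% and 3.16% of the fl/fl cells, and were kept.

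Slc7a5 itself is reported first. Its levels in CPM, the UMI counts of the summed thinned cells brought to a common library total, here scaled further by the trimmed mean of M values (TMM), were 0.931 and 1.90 in the fl/fl cells and 2.32 and 3.79 in the IEC-KO cells without Try5. The gene was thus higher where the label says it was deleted, with a log2 fold change of 1.14 (SE 0.42) and an adjusted p of 0.049 (edgeR's quasi-likelihood test with Benjamini-Hochberg adjustment, the test behind every adjusted p below). The floxed exon is exon 1, at the 5′ end, and the kit counts 3′ ends, so this level checks neither the deletion nor the labels. The call was lost without fl/fl replicate 1 (log2 0.69) and without IEC-KO replicate 2 (log2 0.74), under DESeq2, with the deposited Defa symbols and at a limit of 50% Defa UMIs. Without TMM, Slc7a5 stood at 2.85 and 4.91 CPM in the cells without Try5 and at 4.00 and 4.23 in IEC-KO cells with less than 10% Defa UMIs, so its level was near that of the other cells. All directions below follow the labels.

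The share of cells without Try5 depended on how deeply a cell was read. Of the IEC-KO cells with at least 40% Defa UMIs, 71.4% in replicate 1 (95% Clopper-Pearson interval 69.3 to 73.4) and 62.8% in replicate 2 (60.8 to 64.8) had 0 Try5 UMIs. These intervals cover counting error only. When such cells were split into 3 equal parts by depth, the share without Try5 went from 78.3% in the shallowest to 70.9% and 64.9% in replicate 1, and from 76.0% to 61.8% and 50.5% in replicate 2. After thinning, the same 3 parts stood at 86.0%, 86.5% and 87.7% in replicate 1 and at 88.0%, 86.7% and 90.1% in replicate 2, and the step by depth was gone. The call of a cell as without Try5 thus moved with depth in the full counts.

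**Figure D1:**
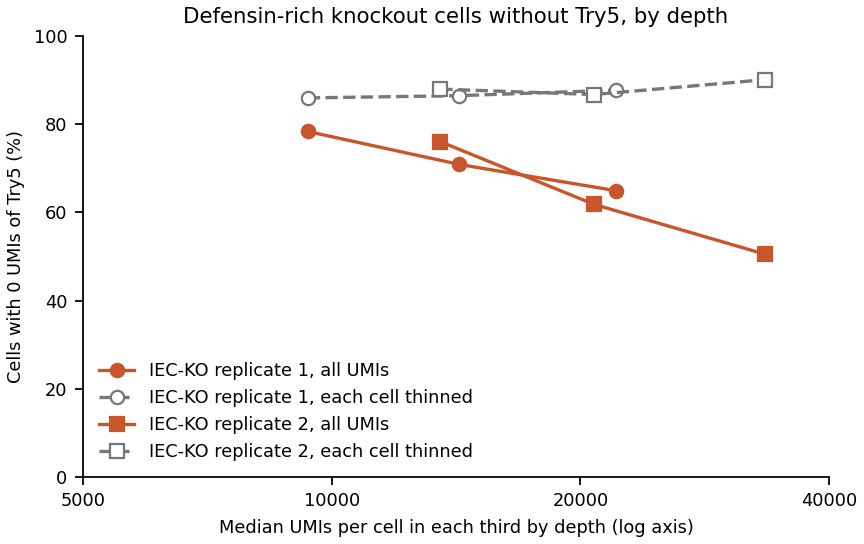
Percentage of defensin-rich IEC-KO cells with 0 Try5 UMIs (vertical axis) against the median UMIs per cell of 3 equal parts by depth (horizontal log axis), for each replicate. With all UMIs the lines fall from 78.3% to 64.9% and from 76.0% to 50.5%, while after thinning each cell they stay between 86.0% and 90.1%.

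Try5 was spread unevenly over the defensin-rich IEC-KO cells that held it. In replicate 1, 317 cells had a single Try5 UMI and 52 cells had 10 or more, and those 52 held 48.2% of the Try5 UMIs. In replicate 2, 491 cells had a single Try5 UMI, and the 79 cells with 10 or more held 45.9%. Most Try5-positive cells were thus 1 UMI away from the cells without it. In IEC-KO cells with less than 10% Defa UMIs, taken as the background, 6.53% and 9.31% held a Try5 UMI (median totals 5549 and 7804 UMIs), at 14.9 and 16.0 CPM, and after thinning 4.27% and 4.48% did. Among the defensin-rich IEC-KO cells with 40% to 50% Defa UMIs, the level was 78.6 and 68.0 CPM, at 50% to 60% it was 58.1 and 48.8, and at 60% or more 34.9 and 28.0, all above that background. The fl/fl libraries had almost none: 3 and 2 of their defensin-rich cells held 1 Try5 UMI each, and their cells with less than 10% Defa UMIs held 0.

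Other trypsinogens were at or near 0. In the cells without Try5, Try10, Prss1, Prss2 and Prss3 were at 0 UMIs in both replicates, which allows at most 0.148 and 0.0998 CPM at a limit of 3 counts, and Try4 had 1 UMI in replicate 1. Among the markers of pancreatic acinar cells, which also make trypsinogen, Amy2a5, Cela2a, Cpa1, Cel and Rbpjl were at 0 UMIs in both replicates. The summed level of the 13 acinar markers in the table was 35.7 and 26.2 CPM, almost all of it Cela1, at 32.9 and 23.6.

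Paneth cell markers outside the selection were present. After thinning, every cell had Lyz1, lysozyme, and Mmp7 was detected in all cells without Try5, Itln1 in all, Ang4 in 97.1% and 97.0%, and Mptx2 in 96.1% and 96.6%. Of the markers given with the label, only Pnliprp2 took no part in the selection, and it was found in 87.6% and 83.8%. Defa17 in all cells, Defa3 in 99.5% and 99.4% and Defa5 in 96.8% and 95.9% describe genes that chose the cells and do not check the label. Presence alone did not separate cells: Lyz1 was also found in every cell with less than 10% Defa UMIs, and Defa17 in at least 99.4% of them. Levels set the cells apart. Lyz1 stood at 17588 and 13869 thinned CPM in the cells without Try5 and at 3939 and 3891 in the IEC-KO cells with less than 10% Defa UMIs. Pnliprp2, a lipase related to pancreatic lipase, stood at 813 and 649 against 125 and 146.

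The cells without Try5 spread over a range of defensin content. Their median Defa share was 49.5% and 49.9%, with quartiles of 44.84% and 55.03% in replicate 1 and 44.7% and 54.6% in replicate 2, and the highest was 66.0%. The fl/fl cells had medians of 56.4% and 59.2%. Just inside the limit, at 40% to 41% Defa UMIs, lay 98 and 105 cells before Try5 was considered, and just outside, at 39% to 40%, 93 and 86 cells. By Defa share, 703 and 708 of the cells without Try5 lay between 40% and 50%, 551 and 618 between 50% and 60%, and 90 and 80 at 60% or more.

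The alpha-defensins these cells kept were not an even sample of those in the fl/fl cells. The following stretches are the last 53 codons before the stop, 5′ to 3′, of 6 genes, read from GENCODE M21 on GRCm38, with cysteine codons in capitals, because this part holds the mature peptide and differs most between the families. Defa24 (chr8:21734494-21735471, plus strand) and Defa30 (chr8:21134642-21135598, plus) gained share of the Defa UMIs, and Defa21 (chr8:21025545-21026516, plus) lost share. AY761184 (chr8:21702519-21703645, minus), Gm14851 (chr8:21095074-21096050, minus, Defa38 in RefSeq) and Gm7861 (chr8:21593375-21594508, minus, Defa43 in RefSeq) were lower in level. Share and level are unlike measures. In TMM-scaled CPM, Defa30 was lower too, at 121926 and 137777 in fl/fl and 84980 and 79264 in the cells without Try5. Without TMM, Defa30 stood at 100099 and 105617 against 104389 and 102529, and Defa24 at 235972 and 239589 against 270779 and 261246.
Defa24: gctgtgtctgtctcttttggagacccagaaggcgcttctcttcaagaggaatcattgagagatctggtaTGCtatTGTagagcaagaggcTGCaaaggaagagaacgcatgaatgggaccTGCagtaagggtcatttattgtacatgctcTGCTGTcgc
Defa30: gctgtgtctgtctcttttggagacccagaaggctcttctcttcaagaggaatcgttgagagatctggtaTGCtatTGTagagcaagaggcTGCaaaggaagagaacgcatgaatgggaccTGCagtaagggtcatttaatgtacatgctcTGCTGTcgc
Defa21: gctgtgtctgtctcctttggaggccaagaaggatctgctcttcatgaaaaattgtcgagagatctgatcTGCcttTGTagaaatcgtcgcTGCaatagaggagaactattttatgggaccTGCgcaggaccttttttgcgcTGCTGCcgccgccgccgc
AY761184: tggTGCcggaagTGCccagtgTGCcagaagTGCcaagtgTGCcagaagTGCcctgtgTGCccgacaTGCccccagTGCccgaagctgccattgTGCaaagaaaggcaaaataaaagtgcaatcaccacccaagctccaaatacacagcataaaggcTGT
Gm14851: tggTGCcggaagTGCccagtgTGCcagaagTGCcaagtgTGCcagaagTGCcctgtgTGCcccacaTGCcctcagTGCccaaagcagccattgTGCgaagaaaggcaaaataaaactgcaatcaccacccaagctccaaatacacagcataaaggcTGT
Gm7861: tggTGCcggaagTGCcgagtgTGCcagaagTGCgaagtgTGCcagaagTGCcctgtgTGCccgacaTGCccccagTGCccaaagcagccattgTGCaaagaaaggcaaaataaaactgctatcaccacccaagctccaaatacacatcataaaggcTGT

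Defa24, Defa30 and Defa21 have 6 cysteine codons, the number that pairs into the bonds of a classical alpha-defensin, while AY761184, Gm14851 and Gm7861 have 11, all of them in the stretch shown. Peptides of the latter kind are known in the mouse as cryptdin-related sequences, which share the leader of the defensin precursor but not its mature part. Over the aligned coding sequence, Defa24 was 98.6% identical to Defa30, 80.6% to Defa21 and 62.8% to AY761184, and AY761184 was 96.8% identical to Gm14851.

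Near-identity limits what can be said of single genes. Of the 28 alpha-defensin genes compared, the 22 with a Defa symbol and 6 under other symbols, 20 were at least 98% identical in coding sequence to another and 12 were 100% identical to another, so the counting could have divided reads among them. The genes were therefore also joined into 7 families, by chaining pairs of at least 95% identity, and described by family. The family with 11 cysteine codons (Defa29, AY761184, Gm14851, Gm7849 and Gm7861) was at most 66.1% identical to any other gene, far from the rest in sequence.

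The family of Defa24 held 6 genes, with Defa30, Defa17, Defa3, Defa23 and Defa31. It made up 49.8% and 49.5% of all alpha-defensin UMIs in the fl/fl cells and 69.7% and 69.2% in the cells without Try5. The level of this family differed less, at 351527 and 360144 thinned CPM in the fl/fl cells against 390813 and 385936. The family with 11 cysteine codons made up 21.9% and 21.9% in the fl/fl cells and 9.75% and 8.51% in the cells without Try5. In each case the 2 genotypes did not overlap. Shares of the same total are tied, so a greater share of 1 family leaves less for the others. The pair Defa21 and Defa22 made up 12.5% and 13.2% in the fl/fl cells against 6.82% and 6.49%, and the pair Defa26 and Gm15292 made up 0.895% and 0.893% against 0.329% and 0.340%. The family of Defa20 overlapped between genotypes, at 12.1% and 12.3% against 10.7% and 12.3%. The family of Defa37, which holds Defa5, also overlapped, at 2.72% and 2.23% against 2.62% and 3.01%. The family of Defa27 was below 0.2% throughout, but greater in the cells without Try5, at 0.137% and 0.168% against 0.0551% and 0.0575% in fl/fl. These shares describe the genes that chose the cells and carry no test.

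**Figure D2:**
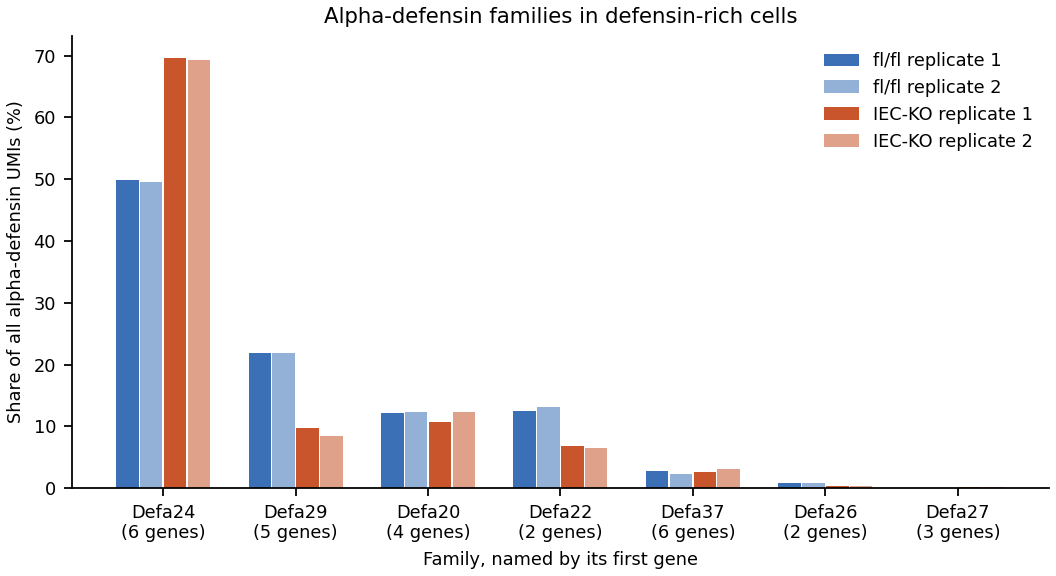
Share of all alpha-defensin UMIs (vertical axis, %) taken by 7 families of at least 95% chained coding identity, with 1 bar for each library. The Defa24 family goes from 49.8% and 49.5% in fl/fl to 69.7% and 69.2% in IEC-KO cells without Try5, and the Defa29 family, with 11 cysteine codons, from 21.9% and 21.9% to 9.75% and 8.51%.

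The most abundant Defa genes went with their families, but not every member did: Defa23 and Defa31 had smaller shares in the cells without Try5 although the Defa24 family gained share, and Defa33 and Defa35 had smaller shares although their families overlapped between genotypes. As a share of the UMIs of the 22 Defa genes, Defa24 was 40.5% and 39.3% in the fl/fl cells and 52.1% and 49.7% in the cells without Try5, and Defa30 went from 17.5% and 17.7% to 20.9% and 20.5%. Defa21 was 7.70% and 7.94% in the fl/fl cells and 3.13% and 2.98% in the cells without Try5, and Defa29 was 6.12% and 6.86% against 2.20% and 2.21%. These shares also moved with defensin content. Among cells with 40% to 50% Defa UMIs, Defa24 was 48.5% and 49.3% in fl/fl and 58.1% and 57.6% in those without Try5. At 60% or more it was 33.2% and 34.8% against 41.6% and 37.3%. Defa21 was 4.47% and 4.26% against 2.01% and 1.70% at 40% to 50%. At 60% or more Defa21 was 10.9% and 9.91% against 5.94% and 5.90%. Over all these cells, 7 of the 22 genes had a greater share in both IEC-KO libraries than in both fl/fl libraries, 8 a smaller share, and 7 overlapped. With 2 libraries per genotype and no background for such a count, it is read as no result. It takes in genes with few UMIs, such as Defa36, at 23 and 32 in the cells without Try5, and Defa31, at 22 and 41. Defa5, a marker given with the label, overlapped between genotypes, at 0.390% and 0.324% in fl/fl and 0.356% and 0.314% in the cells without Try5. Defa3, another, was slightly greater, at 0.395% and 0.448% against 0.389% and 0.336%, but in cells with 40% to 50% Defa UMIs it was smaller, at 0.383% and 0.418% against 0.492% and 0.499%. Defa17 was larger and uneven between the replicates, at 2.43% and 3.63%, against 1.96% and 1.94% in the fl/fl cells, and in cells with 40% to 50% Defa UMIs the genotypes overlapped, at 3.03% and 4.88% against 3.14% and 3.63%.

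The 6 defensin genes under other symbols took no part in the selection and were tested, though each has a gene of the selection in its family, so they are not independent of it. The main comparison set the cells without Try5 against the defensin-rich fl/fl cells in sums per library, over 8488 genes outside the Defa genes and Try5. Of these genes, 10.7% were called higher and 9.93% lower in the cells without Try5, 20.6% in either direction, at a median log2 fold change of 0.00 over all genes tested. All 6 defensins were called lower, with a median log2 fold change of -2.32. AY761184 stood at 68750 and 73275 TMM-scaled CPM in the fl/fl cells and at 16582 and 12671 in the cells without Try5, a log2 fold change of -2.28 (SE 0.18, adjusted p = 7.1e-12). Gm15292 (Defa40 in RefSeq) had the largest fall, from 3060 and 3395 to 236 and 217 (log2 -3.83, SE 0.12, adjusted p = 1.2e-21). For both genes the IEC-KO libraries lay far below the fl/fl libraries, by more than the replicates of a genotype differed. Gm14851 (log2 -2.35), Gm7861 (-2.57) and Gm7849 (-2.30) fell by similar amounts. Gm15293 (Defa41 in RefSeq) fell least, from 5010 and 2672 to 2024 and 1600 (log2 -1.08), and its fl/fl replicates differed most. DESeq2 gave it an adjusted p of 0.15.

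How the libraries were scaled bears on every level below. TMM places the bulk of genes at no change, while scaling by library size alone, which leaves each level as a share of all UMIs, moved the median of all genes to 0.67 on the log2 scale. With TMM, 51.9% of the called genes were higher in the cells without Try5, and with library size alone 97.2% were. A change is therefore given relative to the bulk of genes unless a share of UMIs is named.

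Of the 14 granule antimicrobial genes tested, 6 were called lower and 2 higher, against 9.93% and 10.7% of all genes tested, with a median log2 fold change of -0.18. Lyz1 (ENSMUSG00000069515), which cleaves bacterial cell walls, stood at 43359 and 41875 TMM-scaled CPM in the fl/fl cells and at 14318 and 10722 in the cells without Try5. The 2 IEC-KO libraries lay well below both fl/fl libraries, 3.404-fold lower in the mean (log2 -1.77, SE 0.17, adjusted p = 4.6e-10). Ang4, a ribonuclease with microbicidal activity, stood at 7413 and 7502 in the fl/fl cells and at 2567 and 1854 in the cells without Try5 (log2 -1.75, SE 0.14, adjusted p = 8.0e-12). Mptx2, a mucosal pentraxin, stood at 8346 and 7803 against 2982 and 2168 (log2 -1.65). The means of Lyz1, Ang4 and Mptx2 were 3.14-fold to 3.404-fold lower in the cells without Try5. Zg16, a lectin that binds bacterial cell walls, fell from 4688 and 4745 to 2236 and 2281 (log2 -1.06), Reg3a from 16.0 and 13.8 to 4.64 and 6.75 (log2 -1.38), and Lyz2, the second lysozyme gene, from 44.4 and 35.6 to 11.9 and 9.98 (log2 -1.88). As shares of all UMIs the falls were smaller but all kept their direction and their call. The log2 fold changes were then -1.11 for Lyz1, -1.09 for Ang4, -0.99 for Mptx2 and -0.39 for Zg16. With the deposited Defa symbols the call of Reg3a was lost.

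Itln1, intelectin, which binds microbial sugars, was the most abundant of this list. It stood at 31105 and 29322 in the fl/fl cells and at 30750 and 25555 in the cells without Try5 (log2 -0.10, SE 0.16, adjusted p = 0.71). The fl/fl and IEC-KO ranges of Itln1 overlapped. As a share of UMIs, its log2 fold change was 0.56. The lectins Reg3b (log2 -0.13) and Reg3g (0.15), the ribonucleases Rnase1 (0.21) and Ang (-0.14) and the phospholipase Pla2g2f (-0.22) did not pass the test either. As shares of UMIs Itln1 and these 5 genes were all called higher, with log2 fold changes of 0.54 for Reg3b, 0.81 for Reg3g, 0.87 for Rnase1, 0.53 for Ang and 0.44 for Pla2g2f.

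Reg4, a lectin of the regenerating family, went the other way. It stood at 1317 and 1292 in the fl/fl cells and at 5484 and 4682 in the cells without Try5, 3.90-fold higher (log2 1.96, SE 0.12, adjusted p = 3.2e-14). No IEC-KO value came near an fl/fl value. Reg4 was also higher in IEC-KO cells with less than 10% Defa UMIs, at 2447 and 2557 CPM against 482 and 442 in fl/fl. Mptx1 was higher at low level, at 19.7 and 14.1 against 11.8 and 9.33 (log2 0.66, adjusted p = 0.006). DESeq2 lost this call (adjusted p = 0.16), as did the deposited Defa symbols. The call was also lost without IEC-KO replicate 1 and without fl/fl replicate 2. Among cells between 45% and 55% Defa UMIs the log2 fold change of Mptx1 was -0.05.

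**Figure D3:**
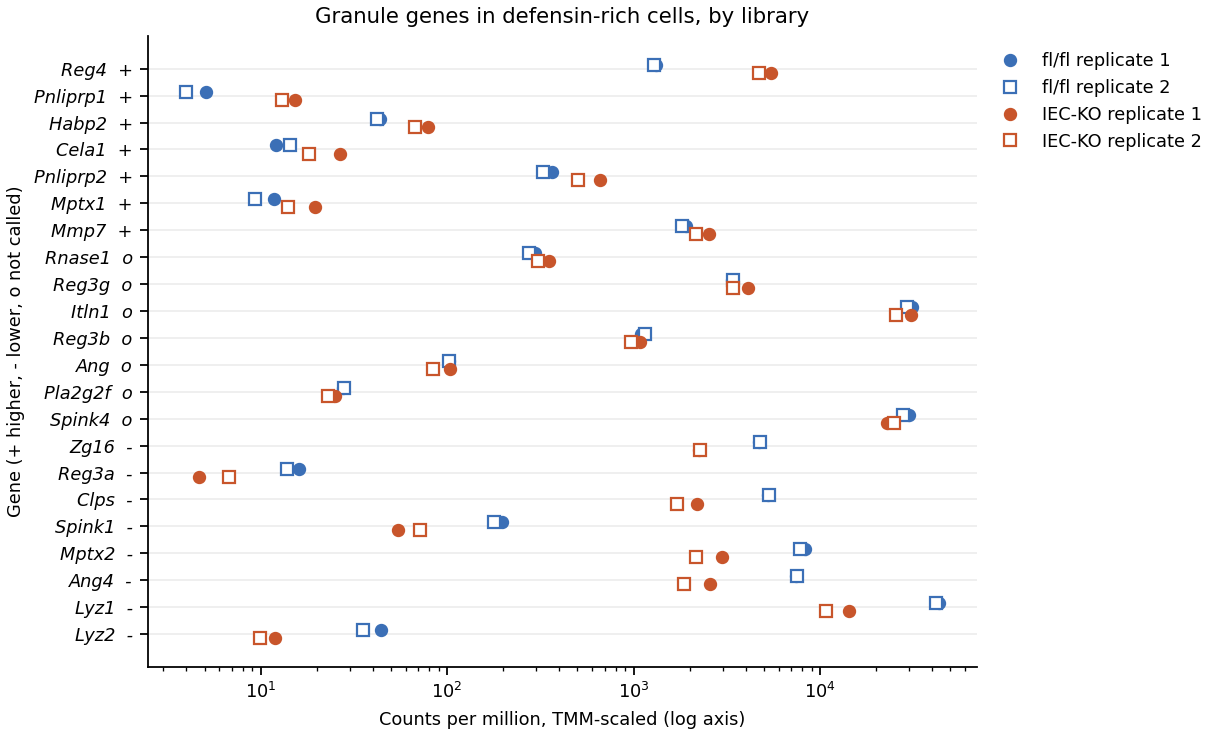
TMM-scaled CPM (horizontal log axis) of granule and pancreatic-type genes, with 1 point for each library, ordered by fold change. Lyz1, Ang4, Mptx2 and Clps sit lower in both IEC-KO libraries, Itln1 overlaps, and Reg4 is higher, at 5484 and 4682 against 1317 and 1292.

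Proteases, their inhibitors and pancreatic-type enzymes moved in both directions. Of 8 tested, 4 were called higher and 3 lower, against 10.7% and 9.93% of all genes tested. The median log2 fold change of the list was 0.03. Mmp7, the convertase of mouse alpha-defensins, stood at 1913 and 1813 in the fl/fl cells and at 2529 and 2167 in the cells without Try5 (log2 0.33, SE 0.11, adjusted p = 0.031). It was therefore kept, but the call of a rise was lost without either fl/fl replicate and without IEC-KO replicate 1, where adjusted p rose to 0.19, 0.33 and 0.13, as well as at limits of 30% and 50% Defa UMIs, between 45% and 55%, and with the replicate number as a block. Pnliprp2 rose from 364 and 328 to 662 and 502 (log2 0.75, SE 0.11, adjusted p = 1.3e-06), and Pnliprp1, a related lipase, from 5.12 and 3.97 to 15.3 and 13.1 (log2 1.62). Habp2, a secreted serine protease, rose from 43.6 and 42.3 to 79.4 and 67.3 (log2 0.77). Pnliprp1, Pnliprp2 and Habp2 were thus higher in both IEC-KO libraries. Clps, colipase, the cofactor of pancreatic lipase, fell from 5284 and 5331 to 2180 and 1699 (log2 -1.45, SE 0.13, adjusted p = 8.7e-11), and Spink1, an inhibitor of trypsin, from 197 and 178 to 54.3 and 71.1 (log2 -1.58). Serpina1b, an antiprotease, fell by 0.57 on the log2 scale. Spink4, a secreted Kazal-type peptide, stood at 29916 and 27702 against 22846 and 24862 (log2 -0.27, adjusted p = 0.23), and its sign turned with shares of UMIs (0.40). Cela1, an elastase counted among the acinar markers, was higher at low level, at 26.8 and 18.3 against 12.1 and 14.3 (log2 0.76). Its call was lost without IEC-KO replicate 1 and with the deposited Defa symbols.

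Lyz1, AY761184 and Reg4 kept their direction among cells of like defensin content. In cells with 50% to 60% Defa UMIs, Lyz1 stood at 36372 and 33553 thinned CPM in fl/fl and at 16797 and 12963 in the cells without Try5. AY761184 stood at 60042 and 66016 against 18533 and 15016, and Reg4 at 1062 and 1090 against 5912 and 5309. Within this band no value of 1 genotype entered the range of the other. The cells without Try5 also differed among themselves by defensin content. AY761184 was lower at higher Defa share, from 23109 and 18547 at 40% to 50% to 10222 and 7910 at 60% or more, and Reg4 from 7697 and 6944 to 4288 and 3961. Defa21 was higher, from 8252 and 7141 to 34793 and 35673. Lyz1 was lower, from 18784 and 15102 to 13090 and 9960. Such gradients are partly fixed by the shares themselves, since more Defa UMIs leave fewer for other genes.

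Genes of Paneth cell identity and of the stem cell niche were more often higher than lower. Of 17 tested, 8 were called higher and 1 lower, against 10.7% and 9.93% of all genes tested. The median log2 fold change of the list was 0.43, against 0.00 over all genes tested. The transcription factors Sox9 (log2 0.49), Atoh1 (0.52), Spdef (0.60) and Xbp1 (0.46), which set the secretory and Paneth fate or the secretory apparatus, were higher, as were the receptor Ephb3 (0.67), the niche ligand Wnt3 (0.42) and the surface protein Cd24a (0.45). Nupr1, a stress-responsive regulator and the most abundant gene of the list, rose from 894 and 874 to 1741 and 1543 (log2 0.89, SE 0.10, adjusted p = 4.1e-08). The niche ligand Dll1 fell by 1.00 on the log2 scale, from 4.66 and 6.39 to 3.25 and 2.25. As a share of UMIs its log2 fold change was -0.34 and its call was lost. The call of Dll1 was also lost with library size without Defa genes and with another thinning seed. Atoh1, Spdef, Xbp1 and Nupr1 were higher still in other cells: in IEC-KO cells with less than 10% Defa UMIs, Atoh1 stood at 118 and 125 CPM, Spdef at 154 and 150, Xbp1 at 199 and 208 and Nupr1 at 2387 and 2264, against 54.6 and 56.5, 66.4 and 77.1, 95.3 and 81.6, and 2138 and 1995 in the cells without Try5. In the fl/fl cells with less than 10% Defa UMIs Nupr1 stood at 405 and 377. The part of free RNA in these differences was not tested. Several of these calls were weak: DESeq2 lost Sox9, Xbp1, Wnt3 and Dll1, and the fit on cells between 45% and 55% Defa UMIs lost Sox9, Atoh1, Ephb3, Wnt3 and Dll1. Wnt3 was also lost without either fl/fl replicate.

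The secretory and endoplasmic reticulum machinery stayed near the bulk of genes, with 5 of 32 called higher and 4 lower, against 10.7% and 9.93% of all genes tested, and a median log2 fold change of 0.02. Hspa5, the main chaperone of the endoplasmic reticulum, stood at 140 and 135 against 153 and 165 (log2 0.21, SE 0.09, adjusted p = 0.089). Calr, calreticulin (log2 -0.42), Vamp8, a protein of granule fusion (-0.40), and Sdf2l1, a chaperone partner (-0.88), fell, and Herpud1, of the degradation pathway, rose (0.43). Calr and Vamp8 changed sign with shares of UMIs, where Sdf2l1 also lost its call (log2 -0.22). Herpud1 lost its call under DESeq2, between 45% and 55% Defa UMIs and without fl/fl replicate 2.

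Genes of the integrated stress response and of amino acid synthesis rose almost as a block. Of 30 tested, 28 were called higher, against 10.7% of all genes tested. The median log2 fold change of the list was 1.52. Trib3, a pseudokinase induced by Atf4, stood at 1.09 and 0.864 in the fl/fl cells and at 66.9 and 56.6 in the cells without Try5 (log2 5.95, SE 0.21, adjusted p = 1.0e-20), the largest rise among called genes with at least 100 thinned UMIs over the 4 libraries. Atf5 stood at 3.41 and 3.80 against 82.0 and 77.1 (log2 4.46, SE 0.15, adjusted p = 3.3e-21). Both genes passed from near absence to levels above that of Atf4 in the fl/fl cells. Ddit3, a transcription factor of stress-induced death, rose from 8.22 and 6.74 to 97.7 and 79.7 (log2 3.55), and Chac1, which degrades glutathione, from 1.24 and 1.38 to 23.7 and 23.9 (log2 4.16). Among the enzymes, Phgdh, the entry to serine synthesis, rose by 2.46 on the log2 scale and Asns, asparagine synthetase, by 1.47. Atf4 rose from 54.6 and 51.5 to 111 and 115 (log2 1.09, adjusted p = 4.3e-11), and Slc3a2, the partner of Slc7a5, from 27.2 and 25.4 to 52.94 and 52.98 (log2 1.01). Slc7a3, a cationic amino acid transporter, had 0 thinned UMIs in the fl/fl cells and 23 and 26 in the cells without Try5, at least 7.33-fold higher when 3 counts were set for each fl/fl library. Aldh18a1 (log2 0.32) and Slc38a2 (0.24) did not pass the test. The list was also higher in other IEC-KO cells: its summed level was 1089 and 1033 CPM in fl/fl and 2892 and 2926 in IEC-KO cells with less than 10% Defa UMIs, against 397 and 358 in the defensin-rich fl/fl cells and 1683 and 1715 in the cells without Try5.

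The other large rises included the stress-linked hormones Stc2 (log2 4.75) and Adm2 (4.57), Angptl8, an inhibitor of lipoprotein lipase (3.99), Fam129a (3.83) and the nucleoporin gene Nup133 (4.30). Among the 8 largest falls of called genes with at least 100 thinned UMIs over the 4 libraries, 5 were defensin genes, and the others were Lyz2, Dio1, a deiodinase of thyroid hormone (log2 -2.39), from 21.7 and 21.8 to 3.72 and 4.50, and Ano6, a lipid scramblase (-2.01).

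Ribosomal protein genes also rose, with 78 of 81 called higher, against 10.7% of all genes tested, and the other 3 not called. Their median log2 fold change was 0.83. Their summed share went from 40370 and 39296 CPM in the fl/fl cells to 109200 and 112679 in the cells without Try5. Rpl12 rose most, from 339 and 336 to 905 and 800 (log2 1.34, SE 0.10, adjusted p = 1.0e-12). In cells with less than 10% Defa UMIs the ribosomal sum was 193283 and 193923 in fl/fl and 232541 and 230138 in IEC-KO. How much of the ribosomal rise came from RNA of such cells was not tested.

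**Figure D4:**
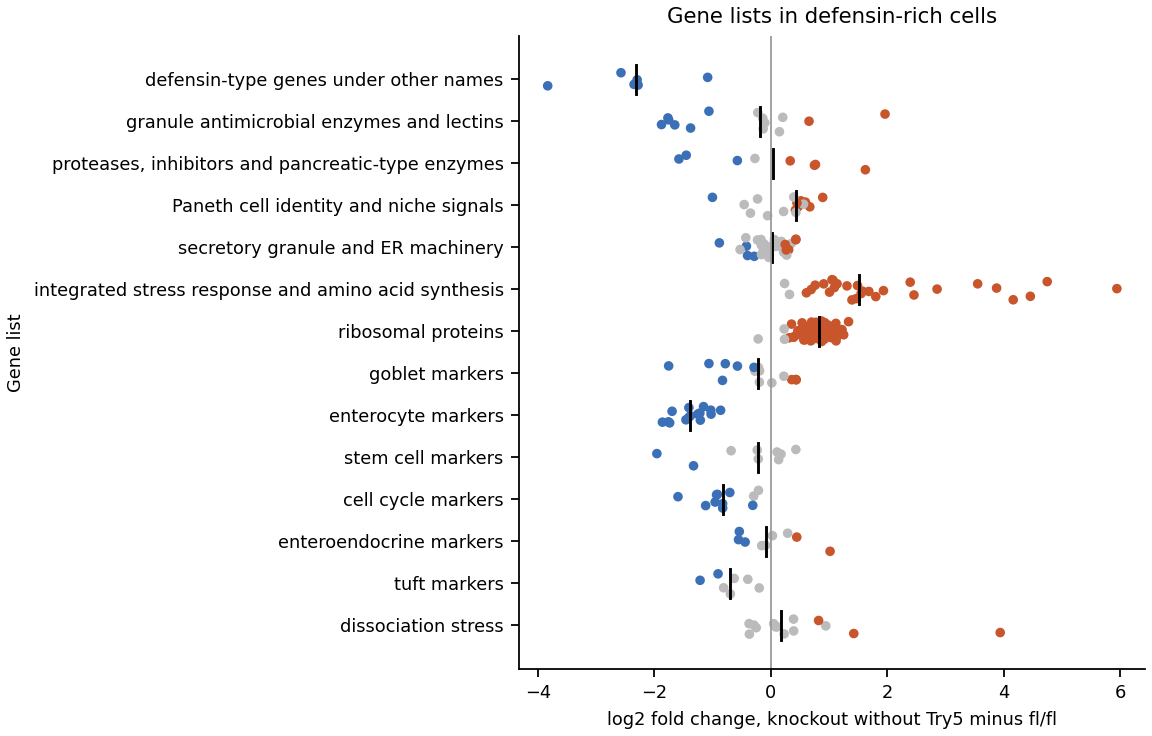
Log2 fold change (horizontal axis, IEC-KO cells without Try5 minus fl/fl cells, both with at least 40% Defa UMIs) of every tested gene in each list, except genes with no thinned UMI in fl/fl. Each point is a gene, coloured where edgeR's adjusted p was under 0.05, and the bar is the median, 1.52 for the integrated stress response and -1.38 for enterocyte markers.

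Markers of other cell types were measured beside these results. All 15 enterocyte markers were called lower (median log2 -1.38), against 9.93% of all genes tested. Their summed share was 1845 and 1723 CPM in the fl/fl cells and 1040 and 1181 in the cells without Try5, and Apoa1, the most abundant of them in these cells, fell from 487 and 478 TMM-scaled CPM to 136 and 154 (log2 -1.74). The enterocyte sum was also lower in other IEC-KO cells. In cells with less than 10% Defa UMIs it was 7579 and 8507 CPM in fl/fl and 4998 and 4572 in IEC-KO. Of the 15 goblet markers, 3 were called higher and 6 lower (median log2 -0.21), against 10.7% and 9.93% of all genes tested. Muc2, the main mucin of goblet cells, rose (log2 0.36), while Tff3 (-0.57), Fcgbp (-0.83) and Clca1 (-0.78) fell. As shares of UMIs these falls were lost, with log2 fold changes of 0.10 for Tff3, -0.16 for Fcgbp and -0.11 for Clca1. The summed goblet share was 53903 and 49032 in the fl/fl cells and 55890 and 62248 in the cells without Try5, led by Spink4, which Paneth cells also express. No goblet marker and no enterocyte marker was at 0.

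Of the 11 cell cycle markers, 9 were called lower (median log2 -0.83), against 9.93% of all genes tested. Among them were Mki67 (-0.96) and Birc5 (-0.92). The summed shares of the list, at 162 and 167 against 151 and 169, overlapped. In cells with less than 10% Defa UMIs the list summed to 1588 and 1657 CPM in fl/fl and 779 and 825 in IEC-KO. As shares of UMIs Mki67 (-0.29) and Birc5 (-0.25) lost their calls. Counts for the next lists stand against 10.7% higher and 9.93% lower over all genes tested, and with 7 to 14 genes in a list they are read as no result about these cells. Stem cell markers had 2 of 9 lower, Olfm4 (-1.96) among them, and Lgr5 (0.18, adjusted p = 0.68) not called. Of 9 enteroendocrine markers, 2 were higher, Pyy (1.02) among them, and 3 lower, with Gip (-0.55) and Cck (-0.44). Of 7 tuft markers, 2 were lower, and of the immune markers only Lyz2 was tested, with 8 of 14 at 0 in the cells without Try5. Genes induced during dissociation had 3 of 14 called higher, namely Atf3 (3.94), Hspa1a (0.82) and Hspa1b (1.43), of which DESeq2 and the fit between 45% and 55% Defa UMIs lost both heat shock genes, at summed shares of 155 and 137 against 244 and 267. The part of other cells' RNA, of dissociation and of depth in the genotype differences was not tested.

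Sex-linked transcripts differed between the genotypes, although the study's methods describe the mice as matched for sex and age. Xist, expressed from the inactive X chromosome, stood at 58.5 and 63.9 in the fl/fl cells and at 165 and 188 in the cells without Try5 (log2 1.53, adjusted p = 3.2e-14), while the Y-linked Ddx3y (-1.60) and Uty (-2.11) were lower. The call of Uty was lost without fl/fl replicate 2 and without IEC-KO replicate 2. All 4 libraries held transcripts of both kinds, and any difference in the mix of sexes and the genotype cannot be told apart. The Y-linked Eif2s3y and Kdm5d were also looked up, and their values are not given here. The sex markers were named with earlier results of these data known.

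The cells without Try5 were last set beside the 1372 IEC-KO cells that met the defensin limit and held Try5. After thinning, 538 and 833 of these remained, as 1 cell of replicate 1 had too few UMIs. Since Try5 divided them, values are given without a test. Over 2661 genes with at least 100 counts, the median absolute log2 difference was 0.0801 (on CPM with 1 added), 0 genes were more than 0.5 higher in the cells without Try5 in both replicates, and 1 was lower, Try5 itself. Lyz1 stood at 17588 and 13869 thinned CPM without Try5 and at 16806 and 13807 with it, Clps at 2678 and 2198 against 2469 and 2028, and Pnliprp2 at 813 and 649 against 814 and 658. Each of these pairs differed less between the classes than between the replicates. Trib3 likewise stood at 82.1 and 73.3 against 77.9 and 65.3.

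The 52 and 79 cells with 10 or more Try5 UMIs differed more in some genes, though so few cells also widen the scatter. Reg4 stood at 9254 and 8256 in them, against 6737 and 6056 in the cells without Try5, and Itln1 at 47917 and 39919 against 37773 and 33056. AY761184 stood at 12100 and 10145 against 20370 and 16390, while its near relative Gm14851 was higher, at 25851 and 23550 against 17784 and 14414. These 4 genes are examples, and in each both replicates went the same way. Defa20 was lower in these Try5-rich cells, at 17290 and 20370 against 30972 and 36434, and so was Gm7861, at 934 and 1362 against 2005 and 2465. Defa29 was higher, at 13722 and 16492 against 10103 and 10424. Lyz1 was at 17049 and 13561, close to its level in the cells without Try5.

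**Figure D5:**
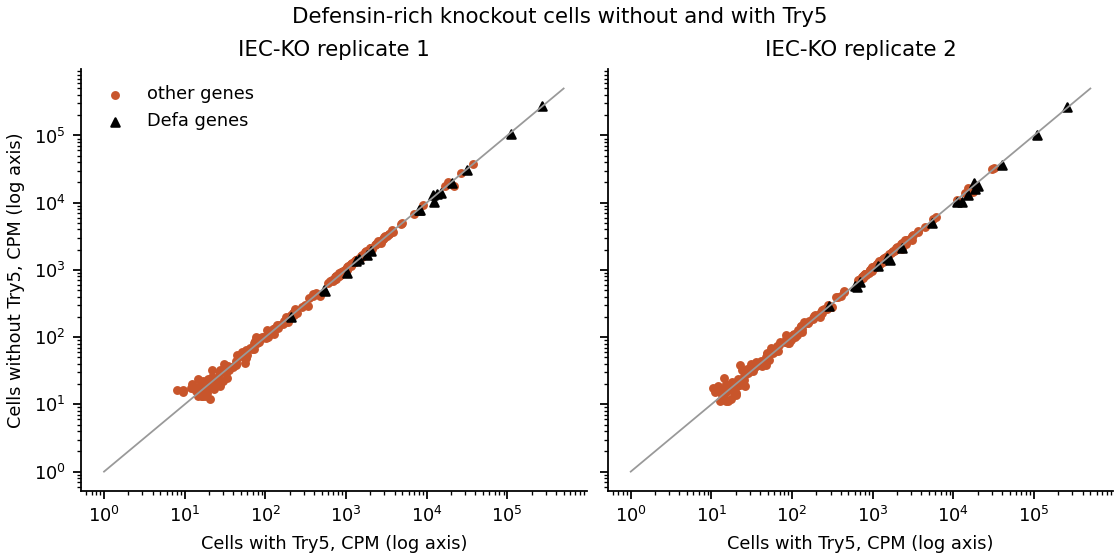
Thinned CPM in IEC-KO cells without Try5 (vertical log axis) against IEC-KO cells with Try5 (horizontal log axis), both with at least 40% Defa UMIs, 1 panel for each replicate. Each point is a gene of the lists or named in the text other than Try5, triangles are Defa genes, and the points lie along the line of equal values, with the widest scatter among the least abundant genes.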

How the data were processed

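The authors deposited, for each of the 4 libraries, raw UMI counts of 27998 genes in every barcode kept by their cell calling (10x Genomics 3′ kit). The submitters' processing notes name Cell Ranger 2.1.1 and mm10. No filter or doublet removal was applied, and a set without the highest Scrublet scores was an alternative. Symbols were taken from GENCODE M21 by gene ID (27645 of 27998 matched), which gave 22 Defa genes against 13 in the deposited gene table. The members, gene lists and tests were chosen with earlier results of these data known.

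Each compared cell was thinned without replacement to 3913 UMIs, and the UMIs were summed per library (7849478 and 7552090 in fl/fl, 5259072 and 5501678 in IEC-KO). Sums were compared with edgeR 4.0.16 (R 4.3.3; TMM, filterByExpr, quasi-likelihood test, two-sided) with Benjamini-Hochberg adjustment over all genes tested at 0.05. The common dispersion was 0.00394. Standard errors were derived from the fitted log2 fold change and the F statistic. Defa genes and Try5 were given no test. Genes named were Defa genes with at least 2% of the Defa UMIs in a library, members of the lists, the targeted gene, the markers of the label, and the 8 largest rises and falls among called genes whose libraries did not overlap and whose thinned UMIs summed to at least 100. The sex genes were named outside this rule. Coding sequences were aligned globally with Biopython 1.88. The fit was tested on simulated data without an overall shift between the groups. It recovered 94% of changes of 1 and 44% of changes of 0.5 on the log2 scale, with 6 false calls. A gene that did not pass the test may therefore still differ by a small amount.

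The alternatives were DESeq2 1.42.0, other scalings, filters, thinning depths, limits of Defa UMIs and uses of Try5, the replicate number as a block, and each library left out in turn. Chosen after seeing the data were the Defa symbols of the deposited table, Defa percentages that included 6 defensins under other symbols, and cells between 45% and 55% Defa UMIs.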

Additional observations from a re-analysis of the deposited data

How the results depend on the processing

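Thinning, scaling and the choice of tool set how many genes passed the test. Against 909 genes higher and 843 lower, the full UMIs gave 2322 and 2294, thinning to 8000 UMIs 1378 and 1299, and DESeq2 416 and 301. Library size alone gave 5085 and 147, and library size without Defa genes 3377 and 263. The Defa symbols of the deposited table, an alternative chosen after seeing the data, gave 334 and 254 from 286 and 242 IEC-KO cells, and the range of 45% to 55% Defa UMIs gave 450 and 349. A limit of 50% Defa UMIs gave 632 and 511. Leaving out 1 library at a time gave 635 to 753 higher and 603 to 680 lower. The other alternatives stayed within 1.5 times of both counts. The share of defensin-rich IEC-KO cells without Try5 was 86.7% and 88.3% when Try5 was read after thinning. In replicate 2 it was also 66.2% at a limit of 30%, 59.0% at 50% and 57.9% with the deposited symbols.

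With library size alone and with library size without Defa genes, the log2 fold change turned positive for Reg3b (0.54 and 0.31), Itln1 (0.56 and 0.34), Ang (0.53 and 0.30), Pla2g2f (0.44 and 0.22), Spink4 (0.40 and 0.17), Calr (0.25 and 0.025), Vamp8 (0.27 and 0.042) and Cck (0.23 and 0.0018), and with the former for Tff3 (0.10) and Gip (0.12). With 1 library left out, Itln1 ran from -0.24 to 0.031 and Ang from -0.29 to 0.012, the positive values without IEC-KO replicate 2. With the deposited symbols Reg3g was at -0.052 and Slc38a2 at -0.13. Between 45% and 55% Defa UMIs Mptx1 was at -0.050, Rnase1 at -0.20 and Lgr5 at -0.52, and at a limit of 30% Lgr5 was at -0.0100. The cause was not tested beyond the construction of each alternative. Of the 69 called genes named, 41 kept their call and direction in every alternative run. DESeq2 lost 11 calls, among them Slc7a5, Mptx1, Gm15293, Sox9, Xbp1 and Mki67, and the deposited symbols lost 14, among them Hspa1a and Herpud1. Without fl/fl replicate 1 the calls of Muc2 and Cck were lost, and without fl/fl replicate 2 those of Muc2, Tff3 and Olfm4.

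Replicate numbers are shared by the genotypes but the labels tie no number to a batch, and the deviations of equal numbers correlated at -0.0056 over genes. With the replicate number as a block, 961 genes were higher and 884 lower, and among the genes named 1 call was lost, that of Mmp7. Depth limits low genes most: thinned sums held 5259072 to 7849478 UMIs per library, and a gene at 0 UMIs was undetectable at this depth, not shown to be absent.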
